A study of Mus musculus with 2 samples.

Results

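Elastin (Eln), tenascin C (Tnc), lysyl oxidase-like 1 (Loxl1), the metalloproteinase inhibitor Timp3 and the secreted protein Igfbp7 were 5 genes of the extracellular matrix whose signal was far lower in stem cells generated with a small molecule than in the cells they came from. They were chosen by name because of that difference, which is therefore given here as a description with no test. Each was read by 1 probe, and they are 5 of 11484 genes measured. Expression was profiled in 2 mouse samples on a 1-colour oligonucleotide microarray, the Mouse Whole Genome OneArray v2. Both samples were labelled as embryonic in stage and C57/ICR in strain. The parental cells were at passage 1 in FBS medium, and the small-molecule-generated stem cells were at passage 5 in ES (embryonic stem) medium. Treatment, passage and medium thus differed together and cannot be told apart. The labels do not name the molecule, its dose or the length of treatment. Each sample has a single column of values here, although the design text speaks of 3 replicates, so no replicate spread and no p-value exist for any value below.

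Elastic fibres are built from a core of elastin deposited on a scaffold of microfibrils, and enzymes of the lysyl oxidase family cross-link the elastin into a rubber-like polymer. They give recoil to skin, lung and arteries, and mesenchymal cells such as fibroblasts and smooth muscle cells make most of them. Matricellular proteins such as tenascin C are secreted into the matrix but act on how cells attach and signal rather than as structural fibres. Timp3 is the tissue inhibitor of metalloproteinases that stays bound to the matrix, and Igfbp7 is a secreted, matrix-associated protein related to the insulin-like growth factor (IGF) binding proteins.

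Values are linear, normalised intensities of the probes. The 25th percentile of each column served as a floor, at 93.8 for the parental and 93.4 for the stem cells. For a gene at or under it in 1 sample, the fold divides the brighter value by that floor and is a lower bound, and a gene at or under it in both was called dim and given no fold. A probe's brightness also depends on its sequence, so positions within a column describe probes and do not rank transcripts against each other. Values above 95% of the 16-bit ceiling of 65535 may be compressed, and 8 parental probes and 10 stem probes lay within 5% of it. Medians of the 2 columns were 304 and 305.

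Eln, the gene of the elastic core itself, read 30091 in the parental cells and 81.2 in the stem cells. The second value was under the floor, so Eln was at least 322-fold lower in the stem cells. Its probe moved from the 99.5th percentile of the genes in the parental column to the 18.6th in the stem column. Loxl1, the lysyl oxidase family member that acts on elastin during fibre assembly, read 29755 and 324. It was 91.9-fold lower, the smallest difference of the 5, and it stayed above the floor at the 47.6th percentile of the stem column, after the 99.5th in the parental one.

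Tnc, a large multimeric glycoprotein prominent in embryonic mesenchyme and in wounds, read 21479 in the parental cells and 125 in the stem cells. It was 172-fold lower and lay just above the floor in the stem cells, at the 28.2nd percentile against the 99.1st in the parental cells. Timp3, which inhibits matrix metalloproteinases and some of the ADAM and ADAMTS proteases, read 22868 and 83.7. Its stem value was under the floor, which gives a difference of at least 245-fold, from the 99.2nd to the 19.3rd percentile.

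Igfbp7 read 65303 in the parental cells, 99.6% of the scanner ceiling, and 285 in the stem cells. Its parental value can be too low for that reason, so Igfbp7 was at least 229-fold lower. It was the only one of the 5 within 5% of the ceiling. Its stem value lay at the 45.2nd percentile of the column, clear of the floor.

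**Figure D1:**
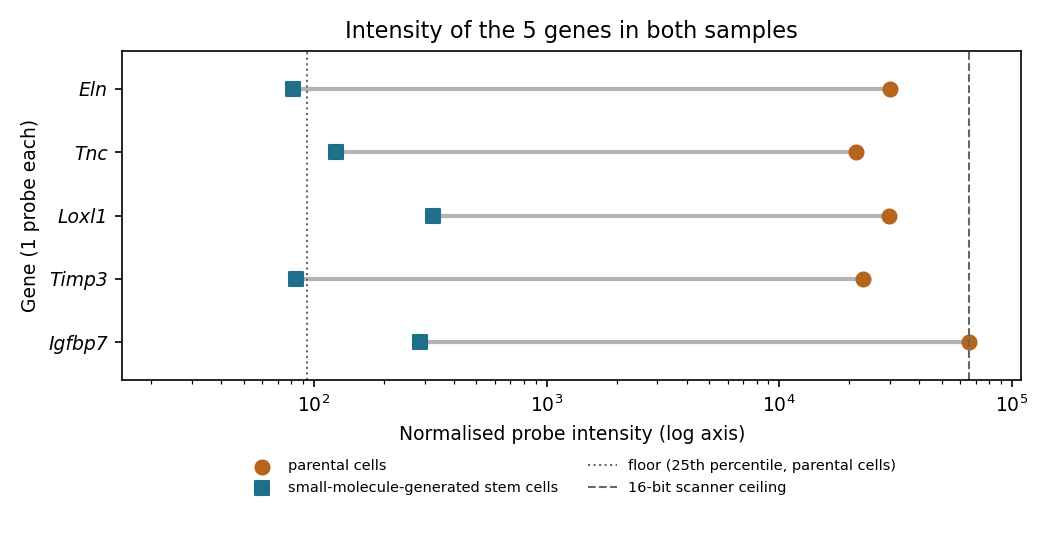
Normalised intensity (log axis) of each of the 5 genes in the parental cells (circles) and the small-molecule-generated stem cells (squares), 1 probe and 1 value per sample, with the floor of 93.8 and the scanner ceiling of 65535 as vertical lines. All 5 parental values lie between 21479 and 65303 and all 5 stem values between 81.2 and 324, with Eln and Timp3 under the floor and Igfbp7 at the ceiling.

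All 5 genes were thus 2-fold or more lower in the stem cells, beside 22.6% of the 9766 genes that exceeded the floor in 1 or both samples, a share from which nothing is read because the same difference chose the genes. The 5 parental values spanned 3.04-fold and the 5 stem values 3.99-fold. At this floor only Eln and Timp3 were under it in the stem cells. With the floor at the 10th percentile none of the 5 was under it, and with the floor at the median all but Loxl1 were, so whether a signal was lost or only low depends on the floor. On the log2 scale the differences, stem minus parental, were -7.43 for Tnc and -6.52 for Loxl1. Those of Eln (-8.33), Timp3 (-7.93) and Igfbp7 (-7.84) are bounds on the size, set by the floor or the ceiling, so the 5 have no settled order. Paired probes of the same gene scattered around their mean by an SD of 1.05 on that scale over 612 genes. Probes at or under the floor in both samples were left out before pairing, which can make this error too small. That error covers probes and not cultures. Differences of 64-fold or more with values raised to the floor were rare among all genes, 29 lower (0.297%) and 12 higher (0.123%).

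**Figure D2:**
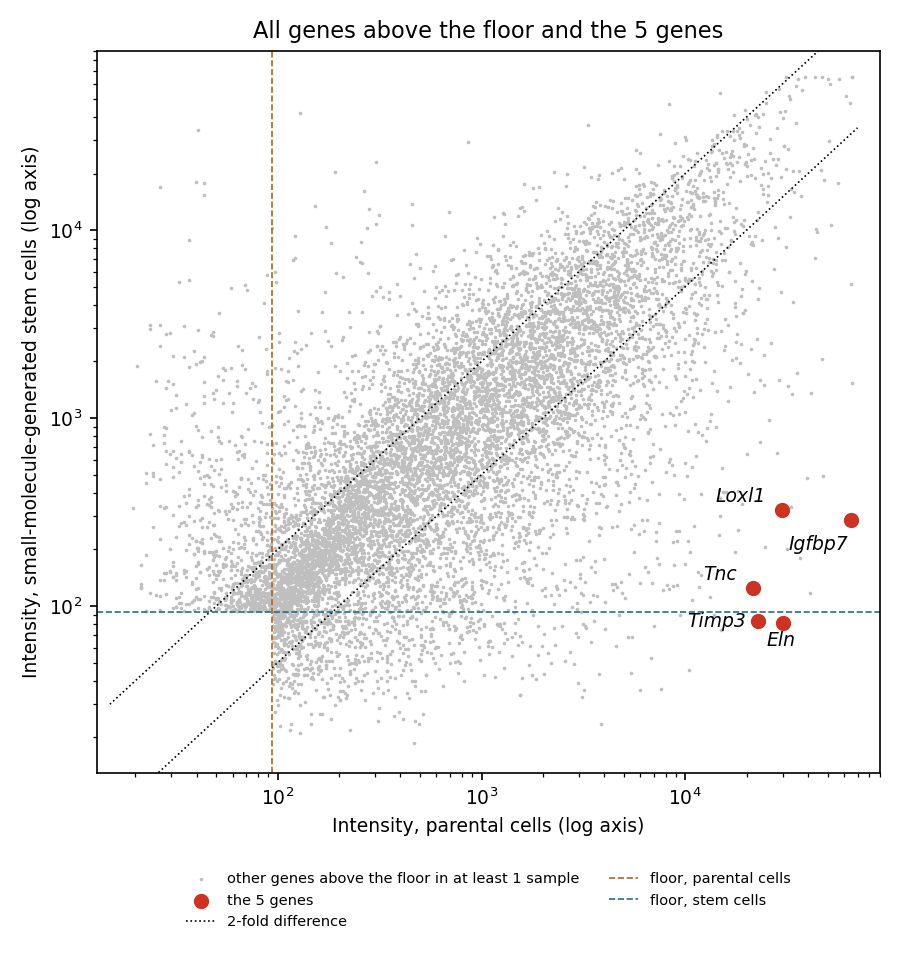
Intensity in the stem cells against intensity in the parental cells (both log axes) for genes that exceed the floor in 1 or both samples (grey) and the 5 genes (red), with the floors dashed and the 2-fold lines dotted. The 5 genes lie at the lower right, with parental values from 21479 upward and stem values of 324 or less.

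The sequences before the transcription starts are shown for those of the 5 genes for which RefSeq windows on GRCm38.p6 were at hand, namely Tnc, Igfbp7 and Timp3. Eln and Loxl1 were not among them. Each is the 250 bases before a start, 5′ to 3′ on the strand of the gene. Both strands were searched for 5 motifs, and capitals mark every match. The TATA box was spelled TATANA. The GC box was spelled GGGCGG. The CCAAT box has its letters in its name. The motif of AP-1, a factor of immediate early responses, was spelled TGANTCA. The motif of the TEAD factors was spelled GGAATG. No motif overlapped another in these windows. The windows are chr4:64047016-64047265 on the minus strand for Tnc, chr5:77408046-77408295 on the minus strand for Igfbp7 and chr10:86300162-86300411 on the plus strand for Timp3.
Tnc: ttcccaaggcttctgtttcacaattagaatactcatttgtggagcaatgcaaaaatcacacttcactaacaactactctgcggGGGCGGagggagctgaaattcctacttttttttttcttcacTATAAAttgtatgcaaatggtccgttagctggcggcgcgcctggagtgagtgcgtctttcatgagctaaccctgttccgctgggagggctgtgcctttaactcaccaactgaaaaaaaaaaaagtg
Igfbp7: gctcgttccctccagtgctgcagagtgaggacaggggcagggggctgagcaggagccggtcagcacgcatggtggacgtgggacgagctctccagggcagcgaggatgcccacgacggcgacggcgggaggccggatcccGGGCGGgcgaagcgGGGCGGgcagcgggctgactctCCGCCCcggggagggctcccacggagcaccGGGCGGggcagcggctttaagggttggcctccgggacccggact
Timp3: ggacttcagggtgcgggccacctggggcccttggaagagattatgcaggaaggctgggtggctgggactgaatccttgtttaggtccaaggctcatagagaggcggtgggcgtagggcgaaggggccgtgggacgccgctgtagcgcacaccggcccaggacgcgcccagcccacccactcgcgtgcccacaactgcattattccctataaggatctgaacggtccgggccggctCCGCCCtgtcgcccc

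These upstream sequences differed from each other in base composition. The window of Tnc held 44.8% G and C and 8 CpG dinucleotides, that of Igfbp7 74.0% and 26, and that of Timp3 65.6% and 18, where the median over 32851 RefSeq windows of that length was 52.4% and 6. A GC box match occurred once in Tnc, once in Timp3 and 4 times in Igfbp7, and 32.7% of all windows held at least 1. Of these 3 windows that of Tnc had a TATA box match, at positions -126 to -121 counted back from the start. RefSeq lists another Tnc start 79 bases downstream, whose overlapping window is not printed and has a further match at -29 to -24, and 22.6% of all windows held 1. The CCAAT box, the AP-1 motif and the TEAD motif had no match in the 3 windows, and 33.8%, 6.75% and 12.6% of all windows held them. A match is a stretch of letters and does not show that a factor binds there.

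Around Eln, some genes of the elastic fibre list were much lower and others were not, and some of the others had little parental signal to lose. Of the 14 measured genes of the list other than Eln, 6 were 2-fold or more lower, none was higher, 6 differed by less than 2-fold and 2 were dim. Bgn, the small leucine-rich proteoglycan biglycan, read 39481 and 477 (82.8-fold lower). Mfap4, a microfibril-associated protein, read 4736 and 89.1 (at least 50.7-fold lower). The latent TGF-beta binding proteins Ltbp2 (15264 and 406) and Ltbp3 (9327 and 250.1), which sit on microfibrils, were 37.6-fold and 37.3-fold lower. Emilin1, a glycoprotein at the surface of the elastin core, read 5675 and 446 (12.7-fold lower), and its relative Emilin2 read 1348 and 135 (10-fold lower).

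The rest of the elastic fibre list differed by less than 2-fold or was dim. The basement membrane proteoglycan gene Hspg2, which encodes perlecan, read 9316 and 5358, a 1.74-fold difference, and Ltbp4, a binding protein that takes part in elastin assembly, read 730.3 and 394, a 1.85-fold difference. Both reached 2-fold after intensity-dependent centring, Ltbp4 at 2.08-fold and Hspg2 at the limit itself. Mfap3 read 1618 and 1517. Fbln7 (182 and 111), Mfap1a (152 and 111) and Emilin3 (85.2 and 96.8) lay near or under the floor in the parental cells. A large fall could not show for them, whereas the genes that were much lower all read 1348 or more there. Mfap1a was counted by its place on the list, and its role in elastic fibres was not checked. Fbln1, a fibulin of the elastic fibre, and Ltbp1 were dim in both samples. The median log2 difference of the list without Eln was -0.84 over the 14 measured genes and -2.11 over the 12 above the floor, beside 0.12 over all 9766 genes above it. Fbn1, Fbn2, Fbln5 and Efemp2, central to the microfibril scaffold and to elastin assembly, were not analysed here.

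All 4 other measured genes of the lysyl oxidase list were lower with Loxl1, at a median log2 difference of -3.98, or -3.61 with values raised to the floor. Loxl2, a relative of Loxl1 that cross-links collagen, was read by 2 probes. They read 8195 and 317, and 26632 and 446, 25.8-fold and 59.7-fold lower. Bmp1, the protease that activates lysyl oxidase and trims procollagen, read 2204 and 49.7, at least 23.6-fold lower. Pcolce, which enhances that protease on procollagen, read 29638 and 4690, 6.32-fold lower, and so kept a bright signal in the stem cells.

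Loxl4, another lysyl oxidase, was 4.79-fold lower as the mean of 3 probes, but its probes disagreed. The first and the third read 762 and 42, and 650 and 55.2, at least 8.15-fold and 6.95-fold lower, whereas the second went the other way at 658 and 1274. With only the brightest probe Loxl4 differed by 1.94-fold, toward higher in the stem cells.

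None of the other measured tenascins was 2-fold or more lower. All read 168 or less in the parental cells, so a fall like that of Tnc could not show. Tnn, which encodes tenascin N, read 168 and 316, a 1.88-fold difference toward the stem cells. Tnxb, the tenascin X gene, read 68.0 and 234, at least 2.50-fold higher in the stem cells, and Tnr, the tenascin of the nervous system, was dim in both samples.

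The matricellular list as a whole was lower in 6 of its 12 other measured genes and higher in 1, Tnxb, with 4 within 2-fold and 1 dim. Its median log2 difference was -1.27 over the 12 and -2.11 over the 11 above the floor. Ccn5, a member of the CCN family of secreted regulators, read 14678 and 240 (61.2-fold lower), and Ccn1 of the same family read 3610 and 174 (20.8-fold lower). Fstl1, a secreted follistatin-like glycoprotein, read 23210.3 and 1600 (14.5-fold lower). Sparc, the collagen-binding glycoprotein osteonectin, was 4.40-fold lower and still read 6212 in the stem cells, after 27358 in the parental cells. Its paralog Sparcl1 (276 and 267) and the related Smoc1 (1734 and 1292) differed by less than 2-fold.

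Genes for proteins that bind tenascin C were lower in 4 of 9 measured cases, with 1 higher and 4 within 2-fold, and the median log2 difference was -0.68. Egfr, the epidermal growth factor receptor, to which repeats of tenascin C can bind, read 4904 and 117 (41.8-fold lower). Anxa2, a cell surface annexin, read 64995 and 5179. With the parental value within 5% of the ceiling, it was lower by at least 12.5-fold. Itga9, the integrin alpha subunit that binds tenascin C, read 533 and 77.0 (at least 5.70-fold lower). Its partner in that receptor, Itgb1, was 3.10-fold lower as the mean of 2 probes, 1 of them bright (23371 and 3300.2, 7.08-fold) and the other dim in both samples. Other integrin subunits differed by less than 2-fold, with Itgav at 5553 and 3462 and Itgb3 at 711 and 814. The heparan sulfate proteoglycan Sdc4 (814 and 1427) also stayed within 2-fold. The higher gene, Ncan (50 and 166), had its parental value under the floor and a lower bound of 1.77-fold.

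**Figure D3:**
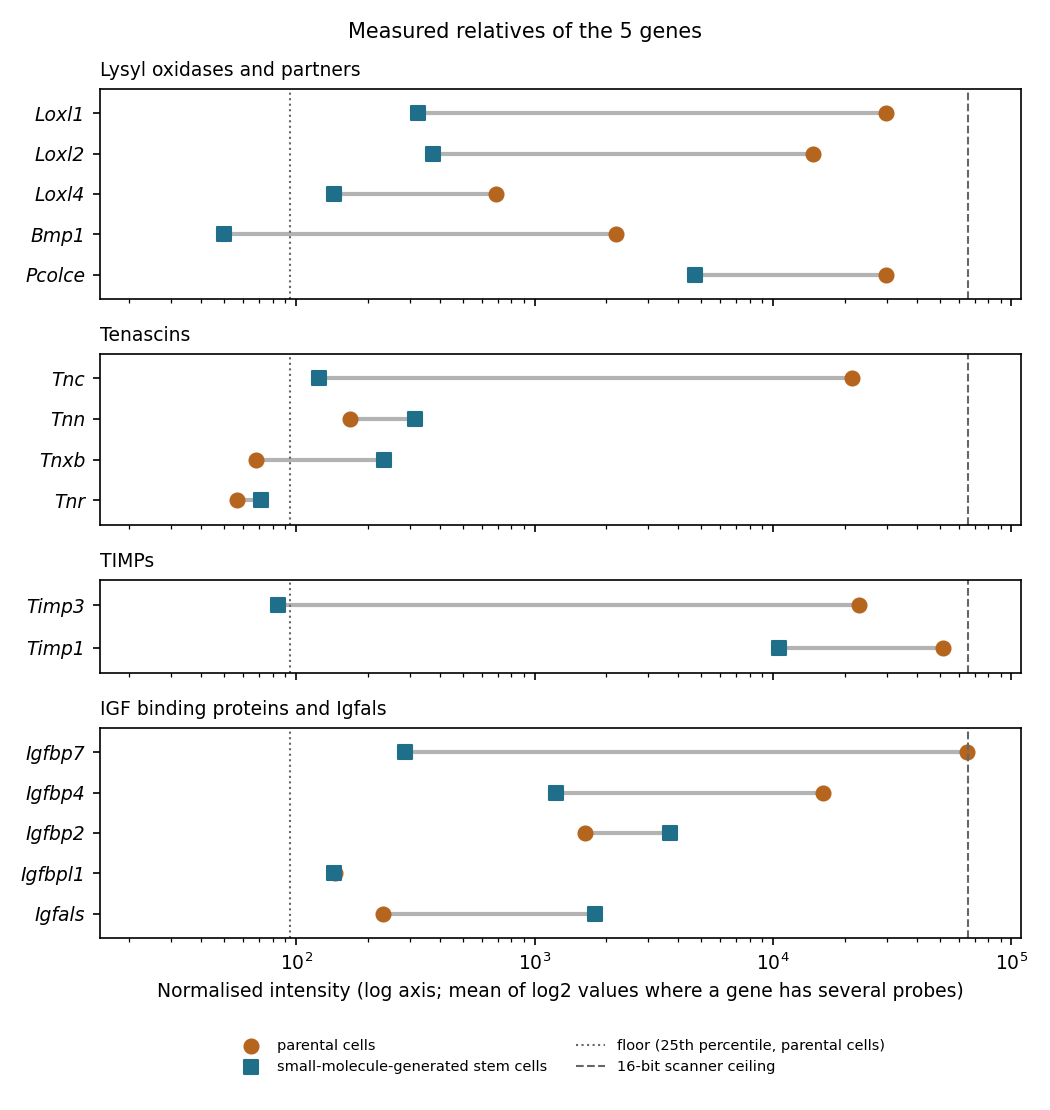
Normalised intensity (log axis) of the measured relatives of Loxl1, Tnc, Timp3 and Igfbp7 in the parental cells (circles) and the stem cells (squares), 1 value per sample, with the mean of the log2 values where a gene has several probes, and the floor and scanner ceiling as vertical lines. All 5 genes of the lysyl oxidase panel are lower in the stem cells. Tnxb, Igfbp2 and Igfals are 2-fold or more higher there, and Tnn is higher by less than 2-fold.

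Timp1 was the only other TIMP measured. It read 51692 in the parental cells and 10589.7 in the stem cells, 4.88-fold lower, and thus stayed bright where Timp3 went to the floor. Among the proteases that TIMPs inhibit, the matrix metalloproteinases Mmp2 (18101 and 407, 44.5-fold) and Mmp14 (11959 and 397, 30.2-fold), which activates the Mmp2 proenzyme, were lower. So was Mmp19 (2261 and 103, 22-fold). Adam8, a related metalloproteinase on the same list but not counted here as inhibited by TIMPs, was lower too (2568 and 122, 21.1-fold).

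Mmp23 (4043 and 570.1, 7.09-fold), Adamts9 (390 and 105, 3.72-fold) and Mmp11 (1673 and 809, 2.07-fold) were lower by less.

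Further targets of the TIMPs differed by less than 2-fold. Adam17, the sheddase of tumour necrosis factor that Timp3 inhibits, read 1098 and 716, a 1.53-fold difference. Mmp17, a membrane-anchored metalloproteinase, read 2290 and 2330. Mmp13, a collagenase, read 1493 and 914, a 1.63-fold difference. Of the 16 other measured genes of this list 8 were lower, 1 was higher, 6 were within 2-fold and 1 was dim. The higher one, Mmp24 (41.4 and 151), had a lower bound of 1.61-fold. The median log2 difference was -0.98 over the 16 genes and -1.05 over the 15 above the floor.

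The IGF axis around Igfbp7 went both ways. Of 16 other measured genes 8 were lower, 4 were higher and 4 were within 2-fold, with a median log2 difference of -1.01, or -0.88 with values raised to the floor. Among all genes above the floor 22.6% were lower and 22.1% higher, so the 4 higher genes are near the share of all genes. The growth factor gene Igf2 read 47590 and 491 (96.9-fold lower). Its receptors were lower by less, Igf1r, the signalling receptor, at 1254 and 210.1 (5.97-fold) and Igf2r, which clears Igf2, at 11576 and 2513 (4.61-fold). Grb10 (33371 and 1340.3, 24.9-fold) and Irs1 (2618 and 299, 8.75-fold), adaptors of Igf1r and of the insulin receptor Insr, were lower as well. Insr itself stayed within 2-fold at 1329 and 863.

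The IGF binding proteins did not share 1 direction. Igfbp4 was 13.1-fold lower (16129 and 1231), whereas Igfbp2 was 2.28-fold higher (1622 and 3694) and Igfbpl1 was at 145 and 144. Igfals, the subunit that stabilises circulating IGF complexes, was 7.73-fold higher (231 and 1786). Pappa, a protease that cleaves Igfbp4, read 81.7 and 290, at least 3.09-fold higher. Igf2bp1, an RNA-binding protein named for its binding to Igf2 messenger RNA and not a secreted binding protein, was 27.6-fold higher (170 and 4711), the largest difference toward the stem cells in these lists.

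**Figure D4:**
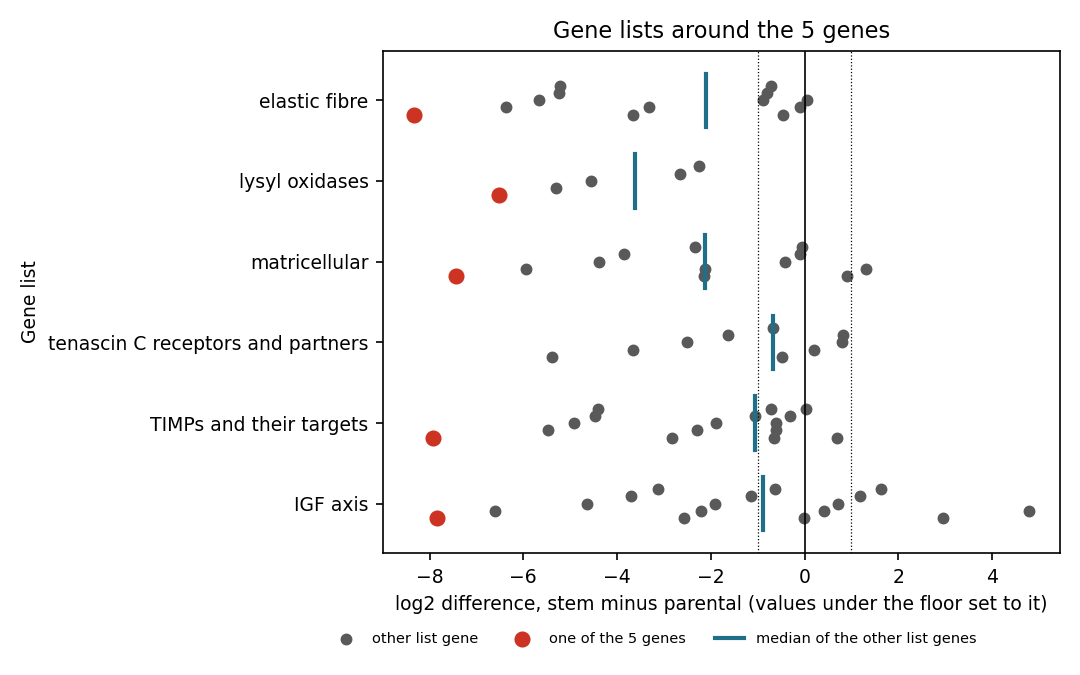
log2 difference, stem minus parental, of each gene of 6 lists that exceeds the floor in 1 or both samples, with values raised to the floor, the 5 genes in red, the other list genes in grey, the median of the others as a bar and dotted lines at 2-fold. Each of the 5 genes lies at the low end of its list, which their choice by size fixes, and the IGF axis spreads furthest toward the stem cells.

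Across the 6 lists, 71 relatives and partners other than the 5 genes were measured, of which 36 were lower, 7 higher (5 with values raised to the floor), 24 within 2-fold and 4 dim. With values so raised, 20.8% of all genes above the floor were lower and 20.5% higher. The 36 are 53.7% of the 67 above the floor, where 22.6% of all such genes were lower, and the 7 are 10.4%, where 22.1% were higher. The lists were drawn up with results of these data known, so these shares are a description. Igf2 alone among the 67 was lower by as much as Loxl1, the least changed of the 5.

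Eln, Tnc and Timp3 had others of the 5 among their 2 nearest genes, whereas Loxl1 and Igfbp7 had none. The 5 were chosen by the same 2 values, so nothing is read from their nearness to each other. Likeness was measured as the Euclidean distance between the pairs of log2 intensities, over 2 samples only, among genes that exceed the floor in 1 or both samples. The nearest gene to Eln was Timp3 at a distance of 0.40, with both stem values under the floor, followed by Thy1 (40943 and 117), a surface glycoprotein of fibroblasts and other cells, at 0.69. The nearest to Tnc was Timp3 at 0.58, followed by the immediate early gene Egr1 (17504 and 194) at 0.70. The nearest to Loxl1 was Col6a1 (32937 and 337), a chain of collagen VI, at 0.16, followed by Mgp (18972 and 347), the matrix Gla protein that inhibits calcification of elastic arteries, at 0.66. The nearest to Igfbp7 were Igf2 at 0.91 and Col6a1 at 1.02. With probes in place of genes, 8 of the 10 pairs were the same, and Tmem176b and Loxl2 took the places of Egr1 and Mgp.

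Markers of cell types bear on which cells the 2 samples held. All 5 measured fibroblast markers were lower in the stem cells, among them Thy1 (349-fold) and the collagen receptor gene Ddr2 (9446 and 89.8, at least 101-fold), and their intensities summed to 122186 in the parental and 926 in the stem cells. Other fibroblast markers, such as Pdgfra, Col1a1 and Dcn, were not analysed here. Of 3 measured smooth muscle markers none differed by 2-fold, with Des at 335 and 364, Smtn at 5882 and 4479 and Myocd, the master regulator of that cell type, dim in both samples. Smtn made up most of their sums, 6301 and 4930.2. All 3 measured chondrocyte markers were lower, or 2 with values raised to the floor, including Col2a1 (4565 and 392, 11.7-fold), with sums of 6053 and 508.

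Other markers moved as well. Of 5 measured macrophage markers 4 were lower, led by C1qa (3198 and 35.7, at least 34.2-fold), with sums of 6442 and 738 and with Ptprc, found on all leukocytes, at 165 and 118. Of 7 measured endothelial markers 2 were lower, 2 were higher, 2 were within 2-fold and 1 was dim, with sums of 19020 and 4214. Plvap (17942 and 2798, 6.41-fold lower) made up most of both sums, and Flt1 was the other lower one at 691 and 63.8. Vwf (36.7 and 661, at least 7.05-fold) and Tie1 (62.9 and 328, at least 3.50-fold) were higher, and Cdh5, which defines that cell type, read 122 and 206. Among 7 epithelial markers were 3 higher, 1 lower and 1 dim one, and their sums were 2763 and 9708. Of 9 pluripotency markers 8 were higher, with sums of 770 and 124119, and Sox2 (265 and 16129) and Esrrb (40.6 and 33968) were bright in the sample labelled as stem cells. Pou5f1, which encodes OCT4, read 37.8 and 639. The exception was Nanog at 77.7 and 94.7, barely over the floor in the stem cells. The part of any of these cell types in the values of the 5 genes was not tested. In bulk RNA, fewer cells of a type and less RNA per cell cannot be told apart.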

How the data were processed

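Total RNA was extracted with Trizol, purified on RNeasy columns, amplified and labelled with Cy5, per the labels' protocols. The authors deposited 1 column of normalised probe intensity per sample on a linear scale. No source used here gives the normalisation, and the nearly equal quantiles of the 2 columns mean that differences in total signal cannot be seen.

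The platform annotation gave 1 symbol for 12380 of the 13989 probes, several for 0 and none for 1609. Symbols were brought up to date by Entrez identifier through a RefSeq table (GRCm38.p6) for 12364 probes. Probes of a gene were averaged as log2 intensity (Python 3.11.15, pandas 2.3.3). Genes were counted at 2-fold or more, and 1718 genes were dim in both samples. With 1 sample per group no test was made, and precision is limited by the number of arrays. The arithmetic of the counts was checked on simulated data, which says nothing of replicate error.

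The 5 genes, the lists and the rule for named genes (largest differences of each list, both directions) were chosen with earlier results of these data known. Neighbours on the chromosome and promoter motifs were added after seeing the data.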

Additional observations from a re-analysis of the deposited data

How the results depend on the processing

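The direction of all 5 genes held under each alternative, and all 5 stayed 2-fold or more lower. Their log2 differences ranged from -8.70 to -7.84 for Eln, -7.60 to -6.95 for Tnc, -6.70 to -6.32 for Loxl1, -8.26 to -7.42 for Timp3 and -8.02 to -7.61 for Igfbp7 over 8 alternatives (median and quantile scaling, intensity-dependent centring, brightest probe, an offset of 50, floors at the 10th percentile and the median, and values raised to the floor). The choice among probes and the 2 other floors leave these differences as they are by construction. Raising values to the floor could move only Eln and Timp3. At most 5 of the 8 could thus move a difference, and fewer could for Tnc, Loxl1 and Igfbp7. With the floor at the median, the lower bounds of Eln, Tnc and Timp3 became -6.63, -6.14 and -6.23, the medians of the elastic fibre and TIMP lists became -3.67 and -2.29, and the genes higher in the matricellular, tenascin C partner and TIMP lists went from 1 to 0 each. The elastic fibre median was -0.84 with the floor at the 10th percentile and -2.11 with dim genes left out. At 4-fold, 1010 genes were lower and 734 higher, and the genes higher in those 3 lists were again 0, with 2 in the IGF axis. With values raised to the floor, the tenascin C partner and TIMP lists had 0 higher. A higher floor, a larger size rule and values raised to the floor let fewer genes pass by construction. Intensity-dependent centring moved the median of all genes from 0.12 to -0.01. It changed the counts of all genes from 2209 lower and 2159 higher to 2444 and 1852. Elastic fibre genes other than Eln that were lower went from 6 to 8. Under some scaling or choice of probe, 5 of 76 relatives and neighbours changed their call (Hspg2, Ltbp4, Adam15, Loxl4 and Fbxo7), none from lower to higher past 2-fold. No paired analysis was possible because each group has 1 sample.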

Other observations

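Genes next to the 5 on their chromosomes were measured in part. RefSeq (GRCm38.p6, used for gene order only) gives 12 nearest or overlapping protein-coding genes, of which 6 were measured. None of the 6 was 2-fold or more lower, 2 were higher and 4 were within 2-fold. With 22.6% of all genes above the floor lower, 6 genes are too few to say whether neighbours differ from other genes. Limk1, a kinase that regulates actin and lies beside Eln, read 1063 in the parental cells and 1466 in the stem cells, and Tmem270 on the other side of Eln read 116 and 142. Beside Loxl1, Stoml1 read 1483 and 2757, and beside Igfbp7, Noa1, a GTPase of mitochondria, read 1259 and 1121. Fbxo7, an F-box gene beside Timp3, was 2.06-fold higher (162 and 333), and 1.90-fold after intensity-dependent centring. Pappa, the IGF axis protease gene, lies beside Tnc and was at least 3.09-fold higher in the stem cells (81.7 and 290), where Tnc was 172-fold lower. Timp3 overlaps Syn3 and Igfbp7 overlaps Polr2b in that annotation, and neither Syn3 nor Polr2b was analysed here. With 1 sample per group these are values of 2 samples.

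Probe pairs show how often 2 probes of a gene read a large difference alike. Before pairing, probes at or under the floor in both samples were left out, so disagreement with a dim probe was not counted and agreement can be overstated. Among genes with 2 probes left, 18 had at least 1 that was 16-fold or more lower in the stem cells. The other probe was 2-fold or more lower in 15 of them and was not in 3. Each of the 5 genes has a single probe and a difference larger than 16-fold, so no such comparison exists for them.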
